A study of Bos taurus with 12 samples.

Results

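The expression of 7 genes of cholesterol synthesis was described in the bovine mammary gland (MG). HMGCS1, IDI1, FDPS, FDFT1, SQLE, CYP51A1 and DHCR7 were chosen by name as enzymes of this pathway, and 14 of the 43653 non-control probes of the array were assigned to them through their RefSeq accessions. They are 7 of the 12639 genes that could be named in this way. The array held 3 probes each for HMGCS1 and FDFT1, 2 each for IDI1, FDPS and CYP51A1, and 1 each for SQLE and DHCR7.

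Biopsies came from 12 multiparous Holstein cows in early lactation, at 24 ± 3 days in milk. The 6 control cows (CONT) ate a lactation diet ad libitum, and the 6 feed-restricted cows (REST) were fed for 4 days a ration in which barley straw made up 48% of dry matter. On day 3, a healthy rear gland of the udder of every cow was infused with 50 µg of lipopolysaccharide (LPS), the bacterial cell wall component that sets off inflammation, and the MG was sampled 24 h later. Both diets were therefore measured after LPS, and the comparison asks whether the diet changed sterol gene expression in inflamed tissue. There was no biopsy without LPS among the 12 arrays.

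Cells make cholesterol from acetyl-CoA through mevalonate, the isoprenoid diphosphates, squalene and lanosterol. When sterols are low in the endoplasmic reticulum, SCAP carries the transcription factor SREBP-2 to the Golgi, where it is cleaved and released to switch on nearly all genes of the pathway, whereas INSIG proteins hold it back when sterols are plentiful. In the lactating MG, cholesterol goes into cell membranes and into the membrane that surrounds milk fat globules, next to what the gland takes up from blood lipoproteins.

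RNA from each cow was labeled with Cy3 and hybridized to its own one-color Agilent array. Values are log2 intensities relative to the array's 75th percentile, so that 0 is the level of that percentile and 1 is 2-fold above it, and the brightest probe stands for a gene. This percentile was 577 to 1184 intensity units on the CONT arrays and 387 to 1082 units on the REST arrays. Between 57.6 and 78.1% of the probes were well above background, as called by the scanning software. All 14 probes were well above background on the 12 arrays, except the dimmest HMGCS1 probe, which was so on 6 CONT and 5 REST arrays, and none was saturated. The arrays lay on 3 slides with 4 arrays each, with 3 CONT and 1 REST on slide 1, 1 CONT and 3 REST on slide 2, and 2 of each on slide 3. The negative controls read 37.7 to 58.2 units on slide 1 and 17.4 to 19.96 units on the other slides.

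None of the 7 genes passed the test between diets. The mean signal was lower in REST for HMGCS1, FDFT1, SQLE, CYP51A1, IDI1 and FDPS, and lower in CONT for DHCR7. The log2 fold change (log2 FC, REST minus CONT) was −0.50 for HMGCS1 and −0.33 for FDFT1, the largest in size, and lay between −0.26 and 0.08 for the other 5 genes. In limma's moderated test, with the Benjamini-Hochberg adjustment over all probes, 0% of the 43653 probes were called, and the adjusted p was 1.00 for each of the 7 genes. Without adjustment, 1143 probes had p under 0.05, and so did 2.64% of the named genes, but none of the 7. In bulk tissue, fewer cells that make a transcript and less of it per cell cannot be told apart.

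HMGCS1 encodes the cytosolic synthase that makes HMG-CoA, at the entry to the mevalonate pathway (accession NM_001206578). Its log2 signal in CONT was 0.44, 0.58, 0.74, 0.93, 0.97 and 1.54, and in REST it was −0.36, −0.014, 0.42, 0.60, 0.69 and 0.87. Thus 3 REST cows lay below every CONT cow and 5 below the CONT mean, while the upper REST values overlapped CONT. The mean was 0.87 ± 0.39 (SD, n = 6) in CONT and 0.37 ± 0.47 in REST. The log2 FC of −0.50 had a standard error of 0.25 and a 95% confidence interval of −1.03 to 0.04, which corresponds to 70.9% of the CONT level (49.0 to 103%). The two-sided p was 0.0655 in limma before adjustment and 0.0736 in an exact permutation test over the 924 splits of the cows. Both other HMGCS1 probes were also lower in REST, with log2 FC of −0.48 and −0.42 and unadjusted limma p of 0.214 and 0.232.

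The next enzymes supply the isoprenoid units. IDI1 encodes isopentenyl-diphosphate isomerase (NM_001075659), and its signal ranged from 0.69 to 2.55 in CONT (median 1.62) and from 0.87 to 2.18 in REST (median 1.36). The REST values lay inside the CONT range, and the log2 FC of −0.12 (standard error 0.32, 95% interval −0.81 to 0.57) was smaller than the spread between cows. FDPS encodes farnesyl diphosphate synthase (NM_177497), whose product feeds both sterols and protein prenylation. Its signal ranged from 2.91 to 3.68 in CONT (median 3.41) and from 2.84 to 3.91 in REST (median 3.11). The groups overlapped nearly over their whole length, with the 2 brightest and the 2 dimmest of the 12 arrays in REST, and the log2 FC was −0.071 (standard error 0.23, 95% interval −0.57 to 0.43).

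FDFT1 encodes squalene synthase (NM_001013004), the first enzyme committed to sterols. Its signal was 1.598, 1.83, 1.88, 2.07, 2.21 and 2.41 in CONT, and 1.47, 1.48, 1.51, 1.66, 1.71 and 2.19 in REST. A total of 3 REST cows were below every CONT cow and 5 were below the CONT mean, and only REST cow 0049 stood among the brighter CONT cows. Means were 2.001 ± 0.29 in CONT and 1.67 ± 0.27 in REST (SD, n = 6 each). The log2 FC was −0.33 (standard error 0.18, 95% interval −0.72 to 0.06), or 79.5% of the CONT level (60.6 to 104%), with an unadjusted limma p of 0.0914 and an exact permutation p of 0.0714. The other FDFT1 probes gave log2 FC of −0.28 and −0.21. Without the 4 arrays of slide 1, the value for the brightest probe was −0.060.

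SQLE encodes squalene epoxidase (NM_001098061), which carries out the oxygen-dependent step after squalene. Its signal ranged from 3.13 to 4.44 in CONT (median 3.96) and from 2.95 to 4.08 in REST (median 3.74). Only REST cow 1058 lay below all CONT cows, and the log2 FC was −0.26 (standard error 0.26, 95% interval −0.82 to 0.29). CYP51A1 encodes lanosterol 14-alpha-demethylase (NM_001025319), the cytochrome P450 of the pathway. In CONT it ranged from 0.39 to 1.47 (median 0.83) and in REST from −0.0097 to 1.28 (median 0.77). REST cows 7043 and 1058 were below every CONT cow, the other 4 lay within the CONT range, and the log2 FC was −0.21 (standard error 0.27, 95% interval −0.80 to 0.38). DHCR7 encodes 7-dehydrocholesterol reductase (NM_001014927), which makes cholesterol in the last step of one branch. Its signal ranged from 1.32 to 3.02 in CONT (median 2.52) and from 1.63 to 3.47 in REST (median 2.29), and the log2 FC was 0.08 (standard error 0.36, 95% interval −0.71 to 0.86). The REST mean of DHCR7 was the higher one although its REST median was the lower one, since REST cows 0049 and 1015 were the brightest of all.

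**Figure D1:**
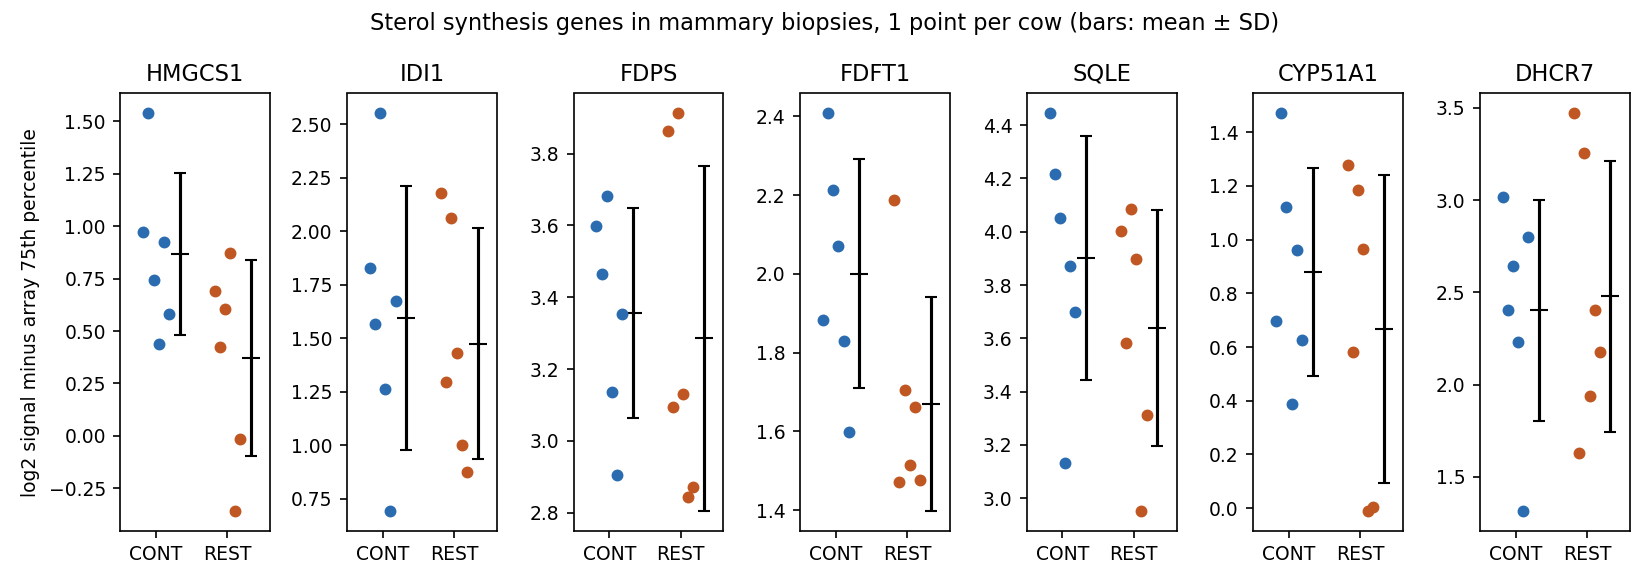
Log2 signal minus the array's 75th percentile (vertical axis, a separate scale for each gene) of the brightest probe of each gene, with 1 point per cow for 6 CONT and 6 REST cows and the mean ± SD beside the points. The diets overlap for all 7 genes, and 3 REST points lie below every CONT point for HMGCS1 and for FDFT1.

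The direction of the probes of 1 gene was the same throughout. All 13 probes of the 6 genes with a lower REST mean were lower in REST, with log2 FC from −0.50 to −0.071, and the single DHCR7 probe was higher. Probes of the same gene also followed each other over the 12 cows once the diet means were removed, with Pearson r from 0.63 (the dimmer HMGCS1 probes) to 0.97 (the brighter FDFT1 probes). Probes of 1 gene measure the same RNA and are not replicates of the diet.

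**Figure D2:**
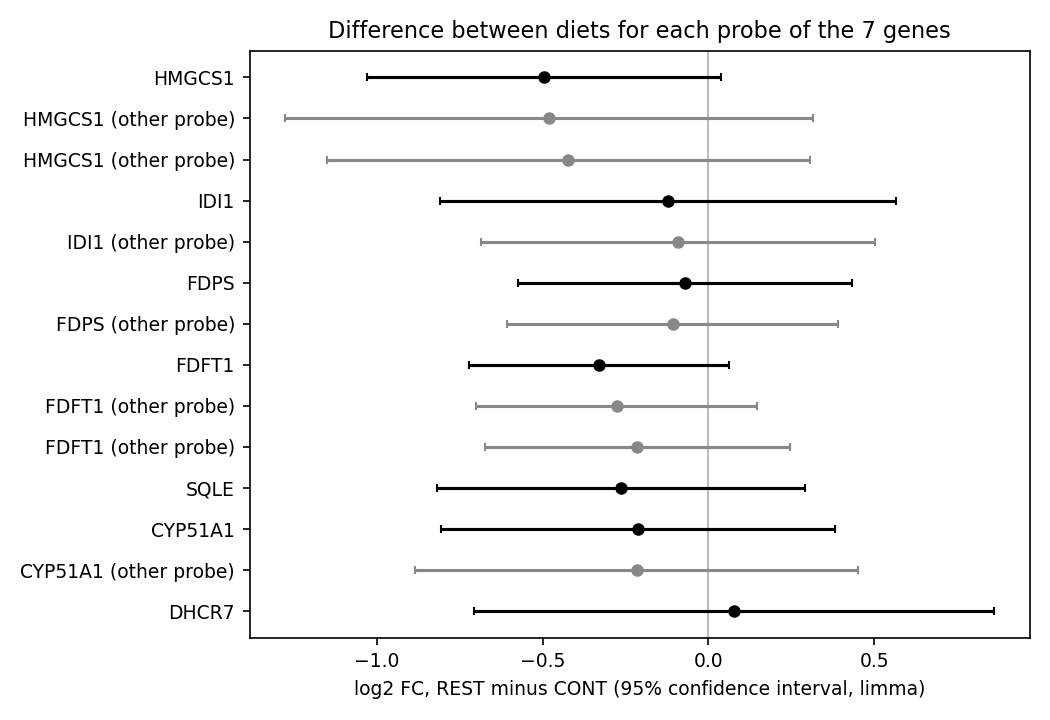
Log2 FC (REST minus CONT, horizontal axis) with its 95% confidence interval from limma for the 14 probes of the 7 genes, with the brightest probe of a gene in black and its other probes in gray. All 14 intervals include 0, and the point estimates of 13 probes lie below 0.

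As a group, 6 of the 7 genes had a lower mean in REST, and the median log2 FC was −0.21. This median was −0.076 without REST cow 1058, −0.078 without REST cow 7043, −0.13 without CONT cow 0055, −0.33 without REST cow 0049 and −0.060 without slide 1. Among all named genes 56.5% had a lower mean in REST and the median log2 FC was −0.034, and 0.15% had groups that did not overlap, against none of the 7 genes. The count of lower genes moved with the slides. Within slide 1, which compared 3 CONT arrays with 1 REST array, all 7 genes were lower in REST (−0.80 to −0.22), and within slide 3 it was 6 of 7 (−0.73 to 0.0058). Within slide 2, with 1 CONT and 3 REST arrays, only HMGCS1 was lower, and the values ran from −0.16 to 0.20. With slide as a block all 7 genes were lower, DHCR7 included, and without slide 1 it was 4 of 7. HMGCS1, FDFT1, SQLE and CYP51A1 were lower in REST with slide as a block, without slide 1 and when any 1 cow was left out, whereas IDI1, FDPS and DHCR7 changed sign under at least 1 of these settings. For SQLE the log2 FC was −0.13 without REST cow 1058, −0.16 without CONT cow 0015 and −0.42 without CONT cow 1076. For CYP51A1 it was −0.076 without REST cow 1058, −0.078 without REST cow 7043 or without slide 1, −0.093 without CONT cow 0055 and −0.33 without REST cow 0049.

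The difference between diets was also compared between genes within a cow. None of the 21 differences between pairs of genes separated the diets. For HMGCS1 minus CYP51A1, the values of the 6 REST cows each lay under the mean of CONT, and the difference between diets was −0.28, with SDs of 0.21 in CONT and 0.25 in REST. For HMGCS1 minus DHCR7, the first and last of these enzymes, it was −0.57, with SDs of 0.73 and 0.78.

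A further 13 enzymes of sterol synthesis were split between the diets, with 6 higher and 7 lower means in REST. Their median log2 FC was −0.00029, and none had an unadjusted p under 0.05. Leaving out 1 cow moved this median to between −0.20 (without REST cow 1015) and 0.096 (without REST cow 1058), and it was −0.15 without CONT cow 8027. The extremes were ACAT2, the thiolase that makes acetoacetyl-CoA, with a log2 FC of −0.62 (standard error 0.54), and PMVK, phosphomevalonate kinase, with 0.23 (0.30). ACAT2 was dim, at −2.16 ± 0.85 in CONT and −2.77 ± 1.19 in REST (SD, n = 6), and its lowest value was −4.58 in REST cow 0049. The other ACAT2 probes gave log2 FC of −0.27 and −0.52. MSMO1, the sterol C4-methyl oxidase that acts after CYP51A1, had a log2 FC of −0.055 (standard error 0.32).

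**Figure D3:**
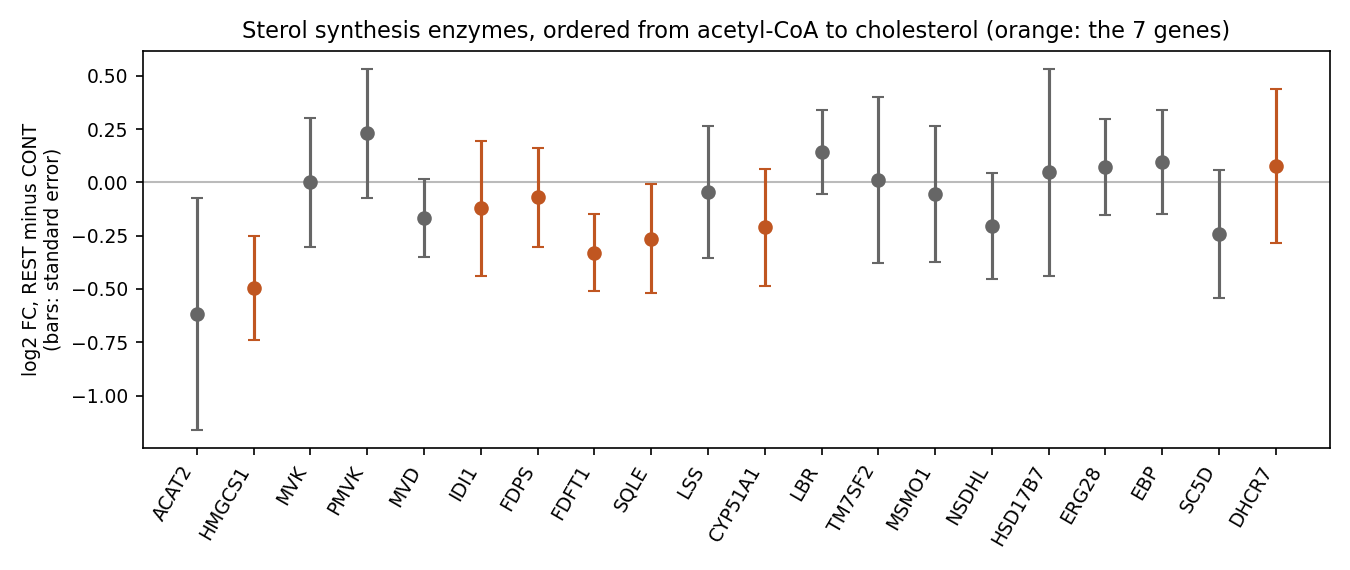
Log2 FC (REST minus CONT, vertical axis) with its standard error for 20 sterol synthesis enzymes, ordered along the pathway, with the 7 genes of the report in orange and the other 13 in gray. Point estimates lie on both sides of 0, from −0.62 for ACAT2 to 0.23 for PMVK, and the lowest of the 7 genes is HMGCS1 at −0.50.

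Of the genes that control the pathway, 2 were higher and 4 lower in REST, with a median of −0.061 and none with an unadjusted p under 0.05. This median was −0.10 without CONT cow 1024, −0.033 without REST cow 0078 and −0.0023 over the means of the probes. INSIG1, the sterol-regulated retention protein that is itself a target of SREBP, had a log2 FC of −0.70 (standard error 0.50, 95% interval −1.78 to 0.38), from 2.31 ± 0.63 in CONT to 1.61 ± 1.18 in REST (SD, n = 6). The REST values of INSIG1 ran from 0.30 in cow 1058 to 3.25 in cow 0049, so that single cows weigh on its log2 FC. The unadjusted limma p was 0.185 and the exact permutation p was 0.223, and its second probe gave −0.25. For SREBF2, which encodes SREBP-2, the log2 FC was 0.31 ± 0.27 (standard error). REST cow 0049 was the brightest at 6.46 (REST mean 5.58), and CONT cow 8027 was the dimmest at 4.63 (CONT mean 5.27). The SREBF2 probes did not share a sign, since the others gave −0.057, 0.46 and 0.44, the last of which were dim in part of the cows.

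Downstream of farnesyl diphosphate, 8 of 9 genes of the isoprenoid branches had a lower mean in REST (median log2 FC −0.16, and −0.098 without CONT cow 8027). FNTA, a subunit that 2 protein prenyltransferases share, was the only one with an unadjusted limma p under 0.05 (log2 FC −0.27, standard error 0.12, p = 0.0450, adjusted p = 1.00), and 5 REST cows were below every CONT cow (exact permutation p = 0.00433). Its other probes gave −0.19 and −0.088. Among 10 genes of sterol efflux and storage, 4 were higher and 6 lower (median −0.015, but 0.14 with slide as a block and 0.20 without REST cow 0049). Of 7 genes of cholesterol uptake and transport, 3 were higher and 4 lower (median −0.049, and from −0.17 without CONT cow 8027 to 0.053 without CONT cow 1024 when 1 cow was left out). Fatty acid synthesis, the neighboring lipogenic pathway, had 1 of 7 genes higher and 6 lower (median −0.22), with no unadjusted p under 0.05. This median was −0.093 with slide as a block, −0.12 without CONT cow 8027, −0.090 without REST cow 1018 and 0.0047 without slide 1.

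Markers of the cells in the biopsy were compared between diets in the same way. The secretory epithelium, which makes milk, was well represented, with casein and keratin genes far above the 75th percentile. Its 9 matched markers were well above background on all arrays, with 7 higher and 2 lower in REST (median log2 FC 0.19, from 0.073 without CONT cow 8027 to 0.34 without REST cow 1018, and −0.013 after quantile normalization), and the log2 of their summed signal was 10.01 to 11.5 in CONT and 10.4 to 11.96 in REST. Leukocyte markers gave 3 higher and 3 lower (median 0.0060, from −0.18 without REST cow 1058 to 0.13 without REST cow 0049, summed level 3.92 to 4.76 and 3.46 to 5.13). Fibroblast and matrix genes were lower for 5 of 6 (median −0.63, and −0.35 with slide as a block, summed level 5.64 to 6.05 and 4.55 to 6.10), with 3 of them at an unadjusted p under 0.05. Endothelial markers were higher for 5 of 5 (median 0.50, and 0.15 without CONT cow 8027, summed level 1.28 to 3.30 and 2.94 to 3.74), with 1 at an unadjusted p under 0.05, against 2.64% of all named genes. Myoepithelial markers were lower for 4 of 5 (median −0.049, from −0.26 without REST cow 1018 to 0.088 without CONT cow 0055, summed level 6.20 to 7.55 and 6.08 to 6.85). Of the adipocyte markers, 4 of 5 were higher (median 0.25, and −0.052 after normexp background correction, summed level 2.90 to 7.35 and 6.65 to 7.92). FABP4, the 1 of the 5 that exceeded background on each array, gave 1.205 ± 0.62 (log2 FC ± standard error). Its SD was 1.59 in CONT and 0.48 in REST. The lower marker, LEP, gave −1.02 ± 0.72 and was well above background on 5 arrays. PLIN1, CIDEC and LIPE gave 0.25, 0.11 and 0.37. Of 2 hemoglobin genes, 1 was higher and 1 lower (summed level 2.08 to 4.35 and 2.99 to 4.71), but the probe of the lower one was well above background on only 1 of the 12 arrays. No marker passed the adjusted threshold, and the part of tissue composition in the differences of the 7 genes was not tested.

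The genes tended to vary together from cow to cow when the cows of both diets were pooled. After each diet's mean was subtracted, REST cows 0049 and 1015 were above their diet's mean for all 7 genes, and REST cows 7043 and 1058 were below it for all 7. CONT cows 0055 and 1024 were above the CONT mean for 6 of 7 genes, and CONT cow 1076 and REST cow 0078 were below theirs for 6 of 7. For DHCR7, the deviation from the REST mean was 0.99 in cow 0049 and −0.85 in cow 0078.

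**Figure D4:**
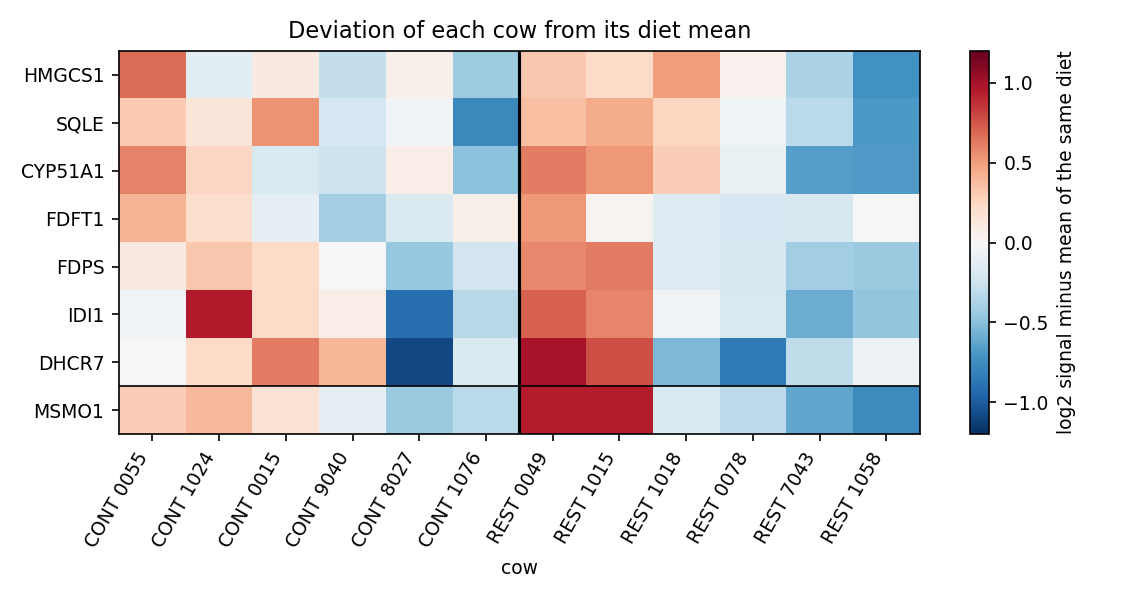
Color gives each cow's log2 signal minus the mean of its own diet for the 7 genes (rows) and, under the line, for MSMO1, with CONT cows left and REST cows right of the vertical line. REST cows 0049 and 1015 are above their diet's mean for all 7 genes, and REST cows 7043 and 1058 are below it for all 7.

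All 21 pairs of the 7 genes had a positive Pearson r over the 12 cows (median 0.59, from 0.099 to 0.92). Each r pools both diets, and r was not computed within each diet, so a shared pattern is not shown for each diet alone. Permuting cows within diets and adjusting over the 21 pairs (Benjamini-Hochberg), 7 pairs passed 0.05 with Pearson's r and 7 with Spearman's rho, and 10 and 9 did before adjustment. The share of pairs of other genes that would pass the same permutation test was not counted, so these counts have no background beside them. For comparison, the median r was 0.005 over the 40504500 pairs of 9001 genes, of which 10.7% reached the median of the 7 genes. These 9001 genes were well above background on every array and had no missing value. These genes share the array and its 75th percentile, and the 7 genes were selected as a pathway with earlier results of these cows known.

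IDI1 and FDPS, which act in succession, were the closest pair (r = 0.92, permutation p = 3e-05, adjusted 0.00063; rho = 0.96, p = 6e-05, adjusted 0.00126). HMGCS1 and CYP51A1 followed with r = 0.88 (permutation p = 0.00065, adjusted 0.00682) and rho = 0.90 (p = 0.00052, adjusted 0.00546). HMGCS1 and SQLE had r = 0.83 (permutation p = 0.0014, adjusted 0.0100) and rho = 0.84 (p = 0.0025, adjusted 0.0177). SQLE was also related to CYP51A1, with r = 0.80 (permutation p = 0.0032, adjusted 0.0167) and rho = 0.76 (p = 0.0086, adjusted 0.0290). DHCR7 went with FDPS (r = 0.83, permutation p = 0.0051, adjusted 0.0214; rho = 0.83, adjusted 0.0194) and with IDI1 (r = 0.77, permutation p = 0.0078, adjusted 0.0272; rho = 0.82, adjusted 0.0194). The last pair to pass was FDPS and SQLE (r = 0.72, permutation p = 0.011, adjusted 0.0342; rho = 0.76, adjusted 0.0290). At the other end, HMGCS1 and DHCR7, the first and the last enzyme, had r = 0.099 and rho = 0.22, and FDFT1 took part in none of the 7 pairs. Without the 2 cows farthest from the median of the first gene, r of the 7 pairs was 0.66 to 0.97.

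These relations did not all hold when cows were left out. Without REST cow 0049, or without REST cow 1015, 4 of the 7 pairs passed, and without any other single cow 5 or more did. The median r of the 21 pairs was 0.45 without REST cow 0049 and 0.54 without REST cow 1015. HMGCS1 with CYP51A1, HMGCS1 with SQLE, SQLE with CYP51A1 and IDI1 with FDPS passed under all of the single-cow omissions, whereas FDPS with SQLE was lost in 7 of them. With slide as a block 8 pairs passed, the 7 among them. The cows were still permuted within diets and not within slides, so this permutation test did not allow for the slide term. Each slide held 4 arrays, too few for a correlation within it. Without slide 1, 0 pairs passed the adjusted threshold by the permutation test in the 8 remaining cows, 7 did before adjustment, and the median r was 0.60.

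**Figure D5:**
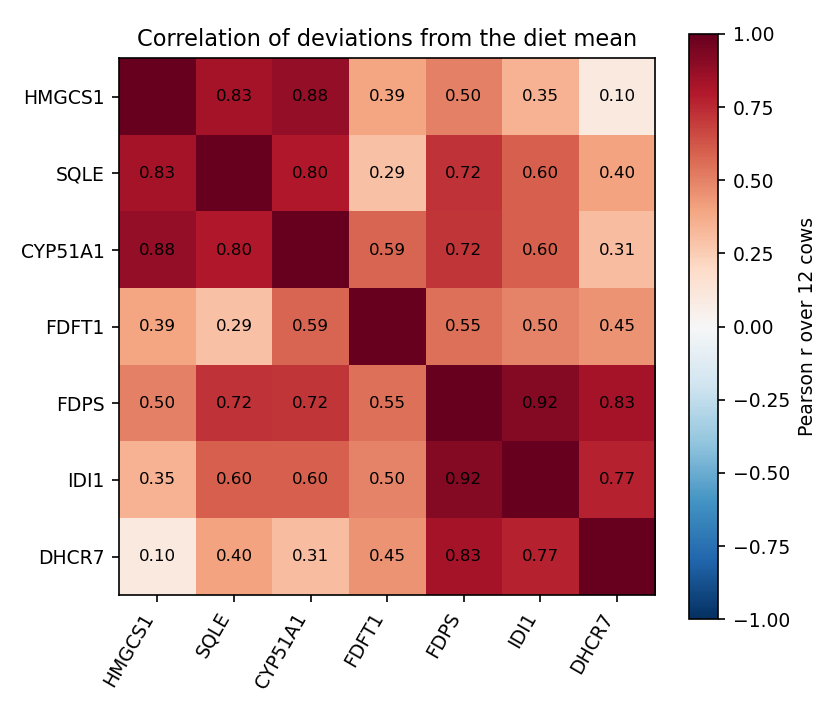
Pearson r over 12 cows between the 7 genes (rows and columns, number in each cell) after subtraction of the diet mean. All cells are positive, with 0.92 for IDI1 with FDPS and 0.10 for HMGCS1 with DHCR7 as the extremes.

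The shared pattern was summarized as the mean of the 7 standardized deviations of a cow, and was set beside array brightness and the cell markers. Over the 12 cows it had r = −0.68 and rho = −0.62 with the log2 of the array's 75th percentile. With the percentage of probes well above background it had r = −0.25. The same 75th percentile was subtracted from every value, so the r of −0.68 is coupled to the scaling, and other genes were not compared. On this scale the 7 genes tended to be higher on dimmer arrays, but not in every cow. REST cow 7043 (75th percentile 570 units) was below its diet's mean for all 7 genes, and CONT cow 1024 (870 units) was above for 6 of 7. With array brightness as a covariate, the median r between the genes was 0.45, 19 of 21 pairs stayed positive and 4 passed, among them HMGCS1 with CYP51A1 (0.87) and IDI1 with FDPS (0.88), while HMGCS1 with DHCR7 was −0.31 and SQLE with DHCR7 was −0.20. The mean of the 6 leukocyte markers had r = −0.53 with the pattern, although the markers differed, from −0.64 for the integrin subunit ITGB2 to −0.10 for CD14 and 0.64 for the B-cell gene CD79A. With this mean as a covariate the median r was 0.48 and 6 pairs passed. For both covariates the permutation test did not allow for the added term. The means of the fibroblast, endothelial and secretory epithelial markers had r of −0.41, 0.51 and 0.036. Single epithelial markers ran from −0.59 for KRT8 to 0.68 for CSN3, with 5 of 9 positive. Fibroblast and matrix genes ran from −0.82 for DCN to 0.46 for PDGFRB, with 1 of 6 positive. These relations are descriptions, and the part of brightness or cell content in the shared pattern was not tested beyond these covariates.

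The gene whose deviations were most like the shared pattern, among 8994 others that were well above background on all arrays, was MSMO1 (r = 0.96 over 12 cows), another sterol enzyme. SMAD5, a transducer of bone morphogenetic protein signals, followed with 0.90, PIK3R6, a regulatory subunit of phosphoinositide 3-kinase gamma, with 0.89, VPS52, a tethering factor of the Golgi, with 0.88, and PKN3, a protein kinase, with 0.88. Of the 13 further sterol enzymes, 11 were well above background on all arrays, but only 10 of these were among the genes ranked. Among the 10, 9 had a positive r (median 0.52), with 0.82 for NSDHL, 0.76 for TM7SF2 and 0.75 for MVD. The negative one was LBR (−0.54), a sterol reductase that is also a receptor of the nuclear envelope. ACAT2, which was not ranked because 1 REST array was not well above background, deviated by −1.80 and −0.96 in REST cows 0049 and 1015, where the 7 genes were high. The median over all 8994 genes was 0.0035. INSIG1 had 0.75 and SREBF2 0.66, whereas SREBF1, which encodes the factor of fatty acid synthesis, had 0.27 and SCAP had −0.042. The mean of the 7 fatty acid synthesis genes had r = 0.58 and rho = 0.58 with the shared pattern. The 6 of them that were ranked had a median r of 0.13, with 3 positive.

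Genes of sterol efflux and storage mostly had a negative r with the shared pattern, with 2 of 10 positive and a median of −0.53. CYP27A1, a mitochondrial sterol hydroxylase, had −0.78, LIPA, the lysosomal acid lipase that frees cholesterol from its esters, had −0.75, and ABCA1, the exporter of cholesterol to lipoproteins, had −0.71. The mean of the efflux list had r = −0.79 and rho = −0.72 with the shared pattern, and the mean of the other sterol enzymes had r = 0.69 and rho = 0.76. The leukocyte markers had a median r of −0.51, with 1 of 6 positive and −0.61 for the macrophage marker CD68. These r values share the arrays and their brightness with those of the 7 genes and are given without a test, and the part of leukocyte content in them was not tested.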

How the data were processed

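Total RNA (100 ng) from the MG of 12 cows, 6 CONT and 6 REST, was amplified, labeled (Cy3) and hybridized by the authors, with 1 one-color Agilent array per cow. Deposited values are spot intensities that the authors obtained with Agilent Feature Extraction 11.0.1.1 (background corrected, not normalized between arrays). The deposited matrix holds the same intensities (largest difference 0). Replicates are separate cows per the labels. Precision is limited by the number of arrays.

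Of 45220 spots, 43803 were not controls. The log2 of each array's 75th percentile was subtracted from its log2 intensities, spots marked as outliers were left out (205 probes then had a missing value), and spots of a probe were averaged. Probes were named by matching RefSeq accessions without version to the RefSeq table of the assembly ARS-UCD2.0. The array annotation belongs to another assembly, and no positions are given. All probes were tested without a filter on dim signals, with limma 3.58.1 (R 4.3.3, lmFit and eBayes, two-sided, Benjamini-Hochberg, threshold 0.05). Intervals are 95% intervals from this fit. Westfall-Young adjusted p-values from 100 of the 462 distinct splits of the cows, and exact permutation tests over 924 splits (smallest p 0.00216), were computed beside it. Correlations used deviations from the diet mean, 100000 permutations within diets and scipy 1.17.1. Likeness to the shared pattern was Pearson's r over the genes well above background on every array and without a missing value. On simulated data with 43653 probes, the test found 26% of 2-fold and 65% of 4-fold changes, with 8 false calls.

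The genes named are the 7 genes, those members of the lists of sterol synthesis, its control, transport, branches and fatty acid synthesis that had an unadjusted p under 0.05 or a log2 FC over 0.5 in size, SREBF2 and INSIG1, and the 5 genes most like the shared pattern. The extremes of a list and genes named with their likeness were chosen after their values were seen. The 7 genes and all lists were chosen with earlier results of these data known. Some genes of these lists are not reported here. Alternatives were quantile normalization, normexp background correction (offset 50), the deposited matrix, a filter on signals above background, outlier spots kept, slide as a block, an intensity trend, the mean over a gene's probes and leaving out each cow. Leaving out slide 1, brightness or leukocyte level as a covariate and, for the correlations, leaving out each cow or the 2 farthest cows were added after seeing the data. Figures were drawn with matplotlib 3.10.9.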

Additional observations from a re-analysis of the deposited data

Results flagged for a closer look

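FDFT1 in REST cow 0049 lay far from the other REST cows (log2 signal 2.187 against 1.47 to 1.71). INSIG1 in CONT cow 8027 lay far from the other CONT cows (1.098 against 2.24 to 2.80). A total of 24 groups of 6 cows were examined in this way, of which about 1 in 20, or 1.2, is expected by chance.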

How the results depend on the processing

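No call on diet changed, since no probe passed the threshold under Benjamini-Hochberg (1143 unadjusted) or Westfall-Young (lowest adjusted p 0.25). Without slide 1, the log2 FC turned to 0.11 for IDI1 and 0.039 for FDPS, and with slide as a block it turned to −0.19 for DHCR7; the cause was not tested. Leaving out 1 cow gave −0.30 to 0.070 for IDI1, −0.20 to 0.018 for FDPS and −0.14 to 0.25 for DHCR7. The sign turned for IDI1 without CONT cow 1024, for FDPS without REST cow 7043 or 1058, and for DHCR7 without CONT cow 8027 or REST cow 0049 or 1015. HMGCS1 ranged from −0.60 to −0.35, FDFT1 from −0.43 to −0.060, SQLE from −0.42 to −0.13 and CYP51A1 from −0.33 to −0.076 over all 21 alternatives. The unadjusted limma p was below 0.05 for HMGCS1 with an intensity trend (0.0469), without CONT cow 1076 (0.0434) and without REST cow 1018 (0.0352), and for FDFT1 without CONT cow 9040 (0.0451) and without REST cow 0049 (0.0249), with adjusted p of 1.00. The 7 correlated pairs became 4 to 7 when 1 cow was left out (4 without REST cow 0049 or 1015), 4 with brightness as a covariate and 0 in the 8 cows without slide 1 (7 unadjusted, permutation test). The median log2 FC of all named genes was −0.036 to −0.034 over the scalings, and 0.012 with slide as a block. A planned count of sterol motifs in promoters was not run, because no promoter sequence was used here. With 6 cows per diet, intervals of about 0.4 to 0.8 on either side of a log2 FC limit what could be seen. No paired analysis was possible because the cow numbers are unique to each cow.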
